A study of Mus musculus with 2 samples.

Results

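In the embryoid library, 120 cell barcodes held almost no RNA of the mitochondrial genome. They were chosen by a measured value: each had at least 1000 unique molecular identifiers (UMIs, the counted molecules), at least 500 detected genes and under 1% of its UMIs from genes whose symbol starts with mt-. They are called low-mt barcodes here and were 2.24% of the 5369 embryoid barcodes that met the UMI and gene minimum (exact binomial 95% interval 1.86 to 2.67, counting error only). They were 120 of 6834 barcodes in both deposited files together. They were set against 4136 comparison barcodes of the same library, with 3 to 10% mitochondrial UMIs and at least 5 UMIs of Col4a1, a collagen chain of basement membranes.

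The embryoids were aggregates of 10000 embryonic stem (ES) cells from Lifeact-RFPRuby mice and 50000 to 80000 XTE cells, which had been reprogrammed from Gata6-H2B:Venus ES cells. Before joining, ES cells grew with PD0325901, CHIR99021 and Lif, and XTE cells with CHIR99021, BMP4, Fgf4, heparin and Activin. The aggregates spent 48 h in aggregation wells and 48 h in repellent plates, and were then dissociated with TrypLE. The second library held whole B6C3F1 mouse blastocysts of embryonic day 4.5. Each group was 1 library of polyadenylated RNA made from 6000 cells, with 28923930 UMIs in the embryoid and 11047555 UMIs in the blastocyst file, and the sources used here do not give the number of embryoids or embryos pooled. The files do not say which barcode came from an ES or an XTE cell. With 1 library per group there is no replicate check and no test between groups: ratios below describe these barcodes, and their intervals cover counting error only.

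Mitochondria keep a small circular genome that encodes a few subunits of the respiratory chain and the ribosomal RNAs of the organelle, while all other mitochondrial proteins are made from nuclear genes. Messenger RNAs of secreted and membrane proteins are in large part translated at the endoplasmic reticulum, to which a hydrophobic stretch near the protein's start directs the ribosome, while Malat1 and Neat1 are long noncoding RNAs that stay in the nucleus. A cell's profile can therefore be read by where its RNAs reside: mitochondrion, endoplasmic reticulum, free cytosol or nucleus.

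To read the profiles that way, each gene was classed by the start of its protein. A gene had a hydrophobic start where, within the first 30 residues of its principal coding sequence, 11 residues in a row had a mean Kyte-Doolittle hydropathy of 2 or more. Of 21998 nuclear genes with a coding sequence, 5039 (22.9%) had one. The first 90 coding bases of 5 genes are shown, 5′ to 3′ on the coding strand, because the results turn on this difference. They come from the GENCODE M21 transcripts of mouse build GRCm38, and capitals mark the 33 bases of the most hydrophobic window where it passed.
Sparc: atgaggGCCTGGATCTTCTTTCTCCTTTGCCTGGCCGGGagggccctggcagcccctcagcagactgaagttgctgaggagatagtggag
Ctsl: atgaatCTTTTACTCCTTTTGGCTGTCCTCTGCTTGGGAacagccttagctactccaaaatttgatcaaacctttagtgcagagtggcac
Anpep: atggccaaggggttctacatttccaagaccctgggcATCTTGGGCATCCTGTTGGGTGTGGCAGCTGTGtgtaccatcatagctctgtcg
Gapdh: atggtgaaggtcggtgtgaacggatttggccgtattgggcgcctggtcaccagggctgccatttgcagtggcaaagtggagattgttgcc
Lgals3: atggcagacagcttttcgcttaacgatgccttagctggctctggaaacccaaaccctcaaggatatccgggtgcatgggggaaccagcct
Sparc, a secreted matrix protein, lies on the minus strand at chr11:55394500-55423183, and its window had a mean hydropathy of 2.39. Ctsl, a protease of the lysosome (minus strand, chr13:64359337-64370890), reached 3.15, and Anpep, an aminopeptidase anchored in the plasma membrane (minus strand, chr7:79821803-79861059), reached 2.87. Gapdh, a cytosolic enzyme of glycolysis (minus strand, chr6:125161715-125166467), reached 1.35. Lgals3, a galectin that leaves the cell without a signal peptide (plus strand, chr14:47367751-47386160), reached 0.42. All 5 stretches are coding sequence, in exons.

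The low-mt barcodes formed a peak of their own. Of the 5369 kept embryoid barcodes, 77 had 1 to 3% mitochondrial UMIs, 4744 had 3 to 10% and 428 had over 10%. The median mitochondrial share was 0.138% in low-mt barcodes and 6.51% in comparison barcodes, and 12 low-mt barcodes had no mitochondrial UMI at all. The 3 members nearest the limit had 0.794%, 0.812% and 0.829%, and the 3 barcodes just outside had 1.01%, 1.01% and 1.05%. Low-mt barcodes held a median of 2421.5 UMIs (lowest 1190, highest 6664) and 1542.5 genes, and comparison barcodes held a median of 5169 UMIs (1151 to 30192) and 2512 genes. After thinning every barcode to 1000 UMIs, with none left out, medians of 769.5 genes in low-mt and 741 in comparison barcodes were detected. The 2 libraries shared 9 barcode sequences, none of them in a low-mt barcode of either library.

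**Figure D1:**
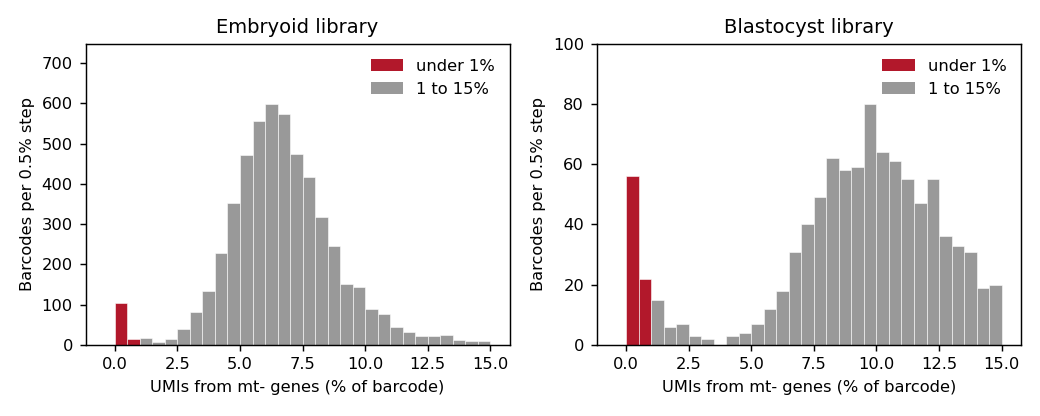
Number of kept barcodes (vertical axis, linear) by the share of UMIs from mt- genes (horizontal axis, in steps of 0.5%, drawn to 15%) in the embryoid library (left) and the blastocyst library (right), with barcodes under 1% in red. Both libraries show a separate peak near 0: the lowest step holds 105 embryoid and 56 blastocyst barcodes.

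The loss of mitochondrial RNA, which the choice of barcodes fixes, differed by gene class. The 7 mitochondrial messenger RNAs detected in low-mt barcodes had log2 ratios of low-mt over comparison levels from -5.71 (mt-Cytb, a subunit of complex III, at 259 CPM, counts scaled to a total of 1e6, against 13600 CPM) to -4.92 (mt-Co1, a subunit of complex IV, at 247 against 7527 CPM). The ribosomal RNAs of the organelle fell less: mt-Rnr1 was at 259 against 2218 CPM (log2 ratio -3.09, 95% interval -3.42 to -2.79) and mt-Rnr2 at 359 against 3351 CPM (-3.22, -3.49 to -2.96). These ribosomal RNAs made up 29.2% of the 703 mitochondrial UMIs left in low-mt barcodes (25.8 to 32.7) and 8.77% of those in comparison barcodes (8.73 to 8.82). Without the 3 barcodes richest in them, the low-mt share was 24.7%. Messenger RNAs mt-Co2, mt-Co3, mt-Atp6 and mt-Nd3 were at or under 5 CPM in both profiles, so the mitochondrial share rests on the other genes.

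Genes of mitochondrial proteins that the nucleus encodes did not share this loss. Counted as called when the summed levels differed at least 2-fold after adding 1 CPM, among genes with at least 20 CPM in 1 of the 2 profiles, 658 of 7584 nuclear genes were higher in low-mt barcodes (8.68%) and 337 were lower (4.44%). A gene under 20 CPM in 1 profile entered through the other alone, which favours a call. Of 33 measured complex I genes, none was 2-fold higher and 1 was lower (Ndufa11, 15.1 against 33.1 CPM), with a median log2 ratio of -0.31 beside 0.14 over all genes tested. None of 25 genes of complexes II to IV (median -0.19), none of 15 ATP synthase genes (-0.35), none of 14 citric acid cycle genes (-0.13) and none of 17 import and chaperone genes (-0.07) passed 2-fold in either direction. Of 67 mitochondrial ribosomal protein genes, Mrpl34 and Mrpl27 were 2-fold lower, at 18.1 and 24.1 CPM in low-mt against 47.1 and 51.2 CPM in comparison barcodes. Pnpt1, which imports and degrades RNA in the organelle, was lower as well, at 18.1 against 46.6 CPM. The comparison profile carries its mitochondrial UMIs in the total: with those left out, the median over all genes moved to 0.04 and the calls to 538 higher and 418 lower. Median-of-ratios scaling, which sets that median near 0, gave 449 higher and 432 lower.

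The genes given with these barcodes as markers were chosen for being high there, so their levels are a description. Lgals3 was at 196 CPM (Poisson 95% interval 151 to 250) in low-mt against 5.40 CPM in comparison barcodes, a log2 ratio of 4.95 (4.73 to 5.62). Anpep was at 136 against 1.98 CPM (5.52, 5.48 to 6.72) and Cldn4, a claudin of tight junctions, at 446 against 33.7 CPM (3.69, 3.46 to 3.98). Krt6a, a keratin of stratified and stressed epithelia, was at 45.2 against 0.66 CPM (4.80, 4.98 to 7.21), but its 15 UMIs came from 4 low-mt barcodes, 8 of them from 1. The intervals are those of the bare count ratio, without the added CPM, so a ratio can lie just outside its interval.

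Marker RNA was present in a minority of low-mt barcodes at this depth. At least 1 of the 4 genes was found in 53 of 120 low-mt barcodes (44.2%) and in 636 of 4136 comparison barcodes (15.4%), and at least 2 in 24.2% and 1.11%. After thinning to 1000 UMIs, at least 1 was found in 29.2% of low-mt and 3.92% of comparison barcodes. Lgals3 was found in 36 low-mt barcodes with at most 5 UMIs in each, Anpep in 20 with at most 5, and Cldn4 in 34 with at most 17. Free RNA was not measured, since no cell type lacking these genes was defined. The shares in comparison barcodes can hold expression as well as free RNA. At least 2 UMIs of Cldn4 were found in 173 embryoid barcodes of 3 to 10% mitochondrial share.

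Over 7 bins of mitochondrial share, the markers did not move alike. From under 1% through 1 to 2, 2 to 3, 3 to 5 and 5 to 10%, Lgals3 was at 196, 66.8, 19.4, 7.63 and 5.01 CPM, a graded order, although its middle levels rest on 5 and 6 UMIs. Cldn4 was at 446, 26.7, 19.4, 37.2 and 31.1 CPM in the same bins, high in the first bin and level after it. Anpep was at 136, 0, 6.48, 4.39 and 2.60 CPM. Krt6a was at 45.2, 0, 0, 1.91 and 0.279 CPM, and at 13.5 CPM (8.0 to 21.3) between 10 and 25%, where it had 18 UMIs against 15 in low-mt barcodes. Above 25%, where 41 barcodes lay, Malat1 reached 8888 CPM, and Lgals3 had none of 63569 UMIs.

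**Figure D2:**
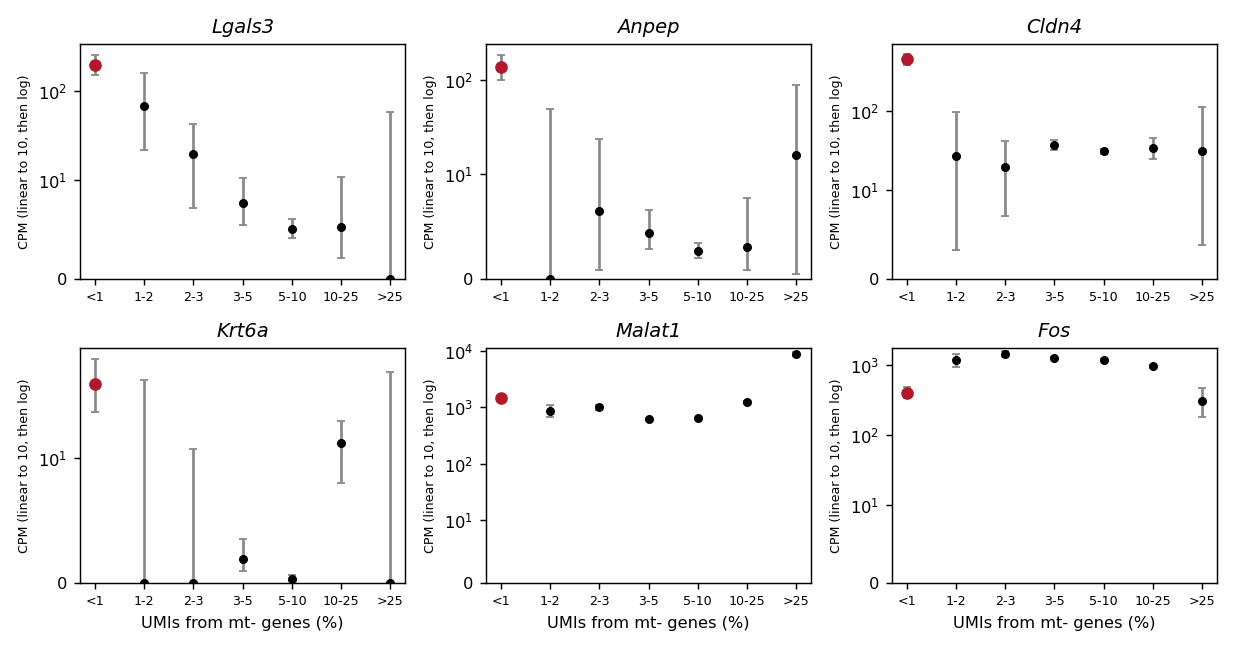
Level of 6 genes in CPM (vertical axes, linear to 10 and logarithmic above) in embryoid barcodes summed within 7 bins of mitochondrial share (horizontal axes, percent); points are levels of the summed barcodes, bars are exact Poisson 95% intervals, and the bin under 1% is red. Lgals3 descends over the lower bins, Cldn4 is at 446 CPM under 1% and at 37.2 CPM or less in the other bins, and Fos is at 398 CPM under 1% against 1163 CPM at 1 to 2%.

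Beside the markers, the highest ratios belonged to genes of varied roles. Sprr1a, a protein of the cornified envelope, was at 54.3 against 0.947 CPM, and Pax6, a transcription factor of eye and brain, at 33.2 against 0.535 CPM, with 11 UMIs in 8 low-mt barcodes. Cpt1a, which carries fatty acids into mitochondria, was at 154 against 5.97 CPM (log2 ratio 4.47, 4.20 to 5.16). Sema7a, a membrane-anchored semaphorin, was at 87.5 against 3.05 CPM, and Abcg1, a cholesterol exporter, at 115 against 5.48 CPM. Tff1, a secreted trefoil peptide, was at 51.3 against 2.22 CPM with 9 of its 17 UMIs in 1 barcode, and Ptgs2, which makes prostaglandins, at 30.2 against 1.11 CPM. Nupr1, a stress-induced chromatin protein, stood at 121 against 7.58 CPM. Cdc42ep5, Slc43a3 and Tbc1d9 completed the 15 highest, with log2 ratios from 3.29 to 3.72. Most other markers of the tissues of Sprr1a and Pax6 were not found: of 11 stratified epithelium markers in the file 9 had no UMI in low-mt barcodes, and of 5 neural markers 4 had none.

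At the other end, 9 of the 15 lowest genes had no UMI in low-mt barcodes. Taking 3 UMIs in the summed profile as the least that could be told from none, Oaf was at least 4.25-fold lower and Sfrp5, a Wnt antagonist, at least 3.18-fold. Also with no UMI were Ggh, Sft2d1, Slpi, Klf2, Aifm3 and Igfbp2, at least 2.30 to 2.96-fold lower. Igfbp1, which binds insulin-like growth factors, was at 21.1 against 348 CPM (log2 ratio -3.98, -5.36 to -2.999). Ddc, Lpcat1, Egflam and Apob had 1 UMI each, with log2 ratios from -3.36 to -3.11. Cubn, the endocytic receptor cubilin, was at 15.1 against 122 CPM (-2.94, -4.65 to -1.80), and its partner amnionless, Amn, at 21.1 against 148 CPM (-2.75, -4.12 to -1.76).

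Of the 4 transcription factors of endoderm whose levels are given here, 3 stayed within 2-fold, and several of its surface and matrix genes were lower. Gata4 was at 664 CPM in low-mt against 550 CPM in comparison barcodes, Gata6 at 262 against 166 and Foxa2 at 196 against 114 CPM. Sox7 was 2-fold lower, at 9.05 against 50.5 CPM. Of 16 primitive endoderm markers 4 were 2-fold lower (Sox7, Cubn, Amn and Lamc1) and none higher (median -0.40). Sox17 and Hnf4a, the other transcription factors among these markers, were called in neither direction. The comparison barcodes were chosen for Col4a1, and against all 4744 barcodes of 3 to 10% the calls over all genes were 660 higher (8.65%) and 380 lower (4.98%). Of 15 basement membrane genes 4 were lower, among them the laminin chain Lamc1 (549 against 1213 CPM) and the nidogens Nid1 and Nid2, which link laminin to collagen. Col4a1 itself stood at 3876 against 4492 CPM.

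Markers of other cell types were few. None of the 10 fibroblast or mesenchyme, 6 erythroid and 3 giant cell or placental markers in the file reached 20 CPM in either profile. Their summed levels in low-mt and comparison barcodes were 15.1 and 40.4 CPM, 3.02 and 0.95 CPM, and 3.02 and 5.72 CPM, and 6, 5 and 2 of them had no UMI in low-mt barcodes. Cd68, the 1 leukocyte marker measured, was at 169 against 53.9 CPM (log2 ratio 1.63), a glycoprotein of lysosomes that is not confined to leukocytes. At least 2 epiblast marker UMIs were found in 8 low-mt barcodes (6.67%) and in 690 comparison barcodes (16.7%). Epiblast markers summed to 148 CPM in low-mt against 136 CPM in comparison barcodes, with 6 of 12 at no UMI in low-mt ones. None of 7 measured trophectoderm markers was 2-fold apart, and they summed to 1125 against 979 CPM. The part of other cell types in the ratios was not tested. The markers match no class listed, and the label names no cell type, so none is given here.

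Stress pathways moved in part. Of 11 measured p53 targets 5 were 2-fold higher and none lower (median 0.80): Cdkn1a, which arrests the cell cycle, at 1122 against 458 CPM (log2 ratio 1.29, 1.14 to 1.44), Mdm2, which degrades p53, at 480 against 204, Trp53inp1 at 597 against 223, Zmat3 at 157 against 72.4 and Perp at 42.2 against 7.41 CPM. Of 17 apoptosis genes Bbc3 (PUMA) and Pmaip1 (NOXA), proteins that open the way to mitochondrial permeabilisation, were higher, at 187 against 46.2 CPM and 196 against 81.0 CPM. These 2 of 17 are near the 8.68% of all genes called higher, and both are also p53 targets. Of 15 autophagy and mitophagy genes the cargo receptors Sqstm1 (1363 against 587 CPM) and Optn (54.3 against 17.1 CPM) rose, with a median of 0.61. In the integrated stress response 4 of 11 genes rose (Gdf15, Trib3, Atf5 and Ddit4; median 0.74). The 14 genes of the unfolded protein response had a median of -0.28, with Ddit3 (60.3 against 16.4 CPM) and Dnajb9 (124 against 43.0 CPM) higher and Creld2 (9.05 against 58.6 CPM) lower. Perp, Optn and Ddit3 passed the 20 CPM filter through the low-mt profile alone, and Creld2 through the comparison profile alone, which favours their calls.

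Among annexins, galectins and S100 proteins, cytosolic proteins that bind calcium or sugars, 8 of 17 rose and 1 fell (median 0.77). Over all genes tested, 8.68% were called higher and 4.44% lower. The 8 include Lgals3, a marker chosen for being high here. Lgals3 and Anxa3 passed the 20 CPM filter through the low-mt profile alone, which favours a call. Beside Lgals3, S100a6 was at 305 against 35.2 CPM (log2 ratio 3.08, 2.80 to 3.41), Anxa2 at 504 against 231, Anxa3 at 87.5 against 19.03, Anxa5 at 112 against 36.6 and S100a13 at 196 against 44.9 CPM. Lgals1 was the member that fell, at 27.1 against 74.4 CPM, with 6 of its 9 UMIs in 1 low-mt barcode. Immediate early genes, which respond within minutes to stimuli and to cell dissociation, went the other way: 5 of 13 were lower and none higher (median -0.89). Fos was at 398 against 1211 CPM (-1.60, -1.86 to -1.36), Fosb at 112 against 663, Egr1 at 564 against 1308, Ier2 at 160 against 421 and Nr4a1 at 9.05 against 59.4 CPM.

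Malat1 and Neat1 were higher in low-mt barcodes. Malat1 was at 1469 CPM in low-mt against 617 CPM in comparison barcodes (log2 ratio 1.25, 1.12 to 1.38), and Neat1 at 127 against 51.4 CPM (1.29, 0.82 to 1.75). Malat1 was found in 86 of 120 low-mt barcodes and, after thinning, in 56.7% of low-mt and 45.2% of comparison barcodes. Of the list of nuclear-retained RNAs 7 were measured, 2 higher and 1 lower (median 0.35), beside 8.68% higher and 4.44% lower over all genes tested. The lower one was Mirg, at 30.2 against 67.3 CPM.

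Genes with a hydrophobic start were somewhat lower over all low-mt barcodes, with a median log2 ratio of -0.06 against 0.16 for other genes. Of 846 such genes 12.6% were at least 2-fold lower, against 3.25% of the others, and 10.3% were at least 2-fold higher, against 8.56% of the others.

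Single low-mt barcodes varied widely in this class of RNA. The share of their nuclear-encoded UMIs that came from genes with a hydrophobic start ran from 2.93% through a median of 12.6% to 23.4%, against 7.56%, 14.3% and 31.0% in comparison barcodes. A limit of 9%, set after this spread had been seen, put 32 low-mt barcodes below it, called poor, and 88 at or above it, called rich. Only 6 of 4136 comparison barcodes (0.145%) lay below 9%, though these had been chosen for Col4a1, itself a gene with a hydrophobic start. Of all 4744 embryoid barcodes of 3 to 10%, 146 (3.08%) did, and of the 23 at 1 to 2%, 6 (26.1%) did. The limit cuts a range and not a gap: 13 low-mt barcodes lay within 1 percentage point of it, 5 of them poor and 8 rich. The mitochondrial share did not set the kinds apart, with medians of 0.180% in poor and 0.136% in rich barcodes and 5 and 7 barcodes with no mitochondrial UMI. Median depth was 2070 UMIs in poor and 2681.5 UMIs in rich barcodes.

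**Figure D3:**
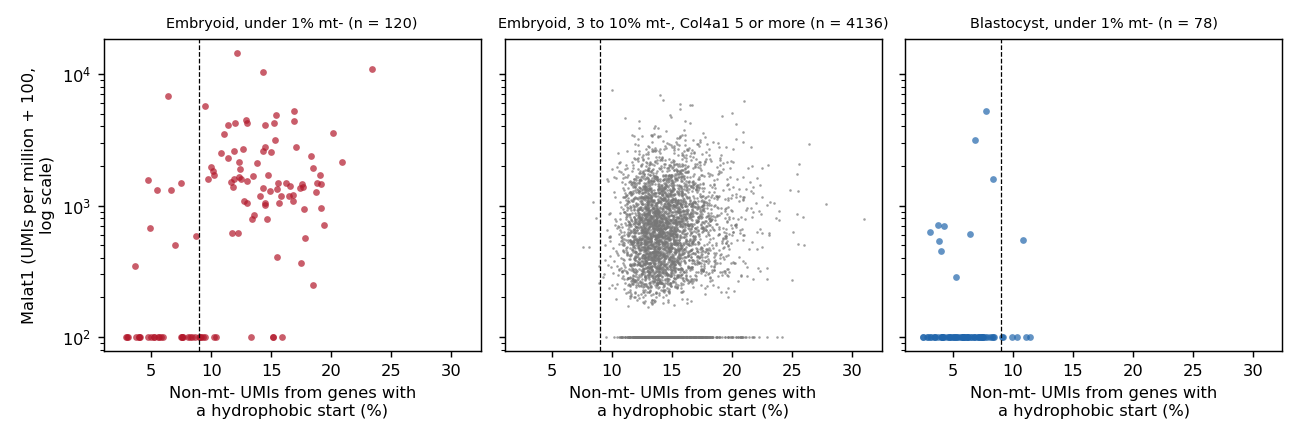
Share of nuclear-encoded UMIs from genes with a hydrophobic start (horizontal axes, percent) and Malat1 per barcode (vertical axes, CPM plus 100, logarithmic) in the 120 low-mt embryoid barcodes, the 4136 comparison barcodes and the 78 low-mt blastocyst barcodes; each point is 1 barcode and the dashed line marks 9%. Points on the bottom line have no Malat1 UMI; most low-mt embryoid barcodes left of the dashed line lie there, and most to its right do not.

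Malat1 differed between poor and rich barcodes. Malat1 counted as having no hydrophobic start and entered the share behind the split only through its total. It was found in 9 of 32 poor barcodes and in 77 of 88 rich ones, and stood at 357 CPM in poor, 1783 CPM in rich and 617 CPM in comparison barcodes. After thinning, in which each group had a draw of its own, it was found in 21.9% of poor, 73.9% of rich and 45.2% of comparison barcodes. Of 8 nuclear-retained RNAs measured in poor barcodes 2 were higher and 2 lower than in comparison barcodes (median -0.31), and Neat1 was at 54.8 against 51.4 CPM. With 13.4% of all genes called higher and 18.6% lower in poor barcodes, these counts say little about so short a list. Across the 120 low-mt barcodes the hydrophobic share and the Malat1 share had a Spearman rho of 0.45, and the hydrophobic share and the ribosomal protein share one of -0.56; barcodes of 1 library are not replicates and both shares are fractions of the same UMIs. Across the 4136 comparison barcodes the corresponding values were 0.059 and -0.41. Genes of cytosolic ribosomal proteins took a median of 13.04% of UMIs in poor, 7.29% in rich and 8.89% in comparison barcodes.

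By construction of the split, genes with a hydrophobic start were low in poor barcodes. Their median log2 ratio over comparison barcodes was -1.34, against 0.25 for other genes, and 467 of 790 (59.1%) were at least 2-fold lower against 13.8% of other genes. Over all genes, 1420 of 7616 were 2-fold lower (18.6%) and 1022 higher (13.4%) in poor barcodes, and at their depth a gene at 20 CPM corresponds to 1.46 UMIs. Among genes with at least 100 CPM in 1 profile, 183 of 270 with a hydrophobic start (67.8%) and 152 of 2189 others (6.94%) were 2-fold lower. The gap that the split makes was present in each of 5 equal classes of transcript length, and this describes it without checking it. In these classes the medians of genes with a hydrophobic start ran from -1.58 to -0.99 and those of other genes from 0.12 to 0.30. In rich barcodes the medians were 0.09 for genes with a hydrophobic start and 0.15 for others. Of all 7539 genes tested there, 918 were 2-fold higher (12.2%) and 538 lower (7.14%).

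Single genes show the size of the gap that the split makes. Sparc was at 1152 CPM in poor, 7150 CPM in rich and 5710 CPM in comparison barcodes, and Ctsl at 466, 4985 and 2982 CPM. Lamb1, a laminin chain, was at 137, 1698 and 1310 CPM, and Hspa5, the main chaperone inside the endoplasmic reticulum, at 315, 1837 and 1414 CPM. Gapdh, without such a start, was at 1865, 990 and 1352 CPM, and Actb, cytosolic actin, at 7281, 5557 and 5515 CPM. The reticulum and lysosome genes were thus near or above comparison levels in rich barcodes and far below them in poor ones, while Gapdh had the opposite order.

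**Figure D4:**
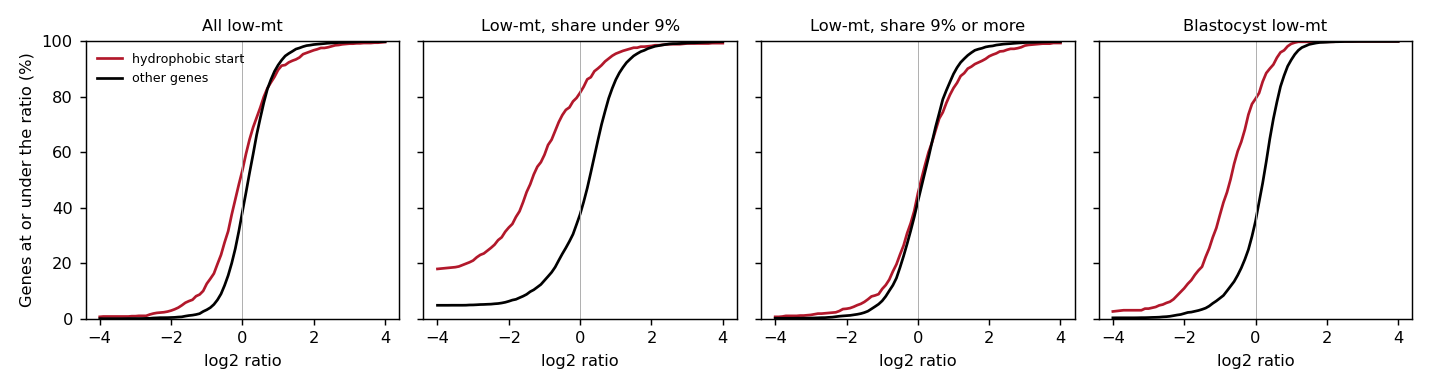
Cumulative percent of genes (vertical axis) at or under each log2 ratio (horizontal axes) for genes with a hydrophobic start (red) and other genes (black), in all low-mt, poor and rich embryoid barcodes over comparison barcodes and in low-mt blastocyst barcodes over blastocyst barcodes of 3 to 10%. The curves part in poor barcodes, which were split by this class, with medians of -1.34 against 0.25. They also part in blastocyst low-mt barcodes, with medians of -0.71 against 0.21, and lie close together in rich barcodes.

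Lists of basement membrane, lysosome and endoplasmic reticulum genes were low in poor barcodes. There, 13 of 15 basement membrane genes were 2-fold lower (median -2.999, or -1.76 with genes at 0 UMIs set to their bound), as were 12 of 15 lysosome genes (-1.70), 12 of 13 of the unfolded protein response, mostly chaperones and enzymes of the reticulum (-1.58), and 11 of 16 of the translocon (-1.35). In rich barcodes these lists had 3, 0, 1 and 0 lower members and medians of -0.19, 0.61, -0.07 and -0.57. Over all genes, 18.6% were called lower in poor and 7.14% in rich barcodes. Mitochondrial proteins encoded in the nucleus stayed near 0 in poor barcodes, with medians of -0.05 for complex I, 0.18 for complexes II to IV and 0.13 for ATP synthase. In rich barcodes these medians were lower, at -0.45, -0.40 and -0.52, beside 0.13 over all genes tested there. Ribosomal proteins had a median of 0.44 in poor and -0.39 in rich barcodes, and the proteasome 0.34 and -0.16. These lists share genes with the class that defined the split.

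Immediate early genes were also low in poor barcodes, where 11 of 13 were 2-fold lower, against 4 of 13 in rich barcodes. Over all genes, 18.6% and 7.14% were called lower in poor and rich barcodes. Fos, Fosb and Egr1 have no hydrophobic start. Fos was at 41.1 CPM in poor, 499 in rich and 1211 in comparison barcodes, with 3 UMIs in the poor ones. Fosb had no UMI in poor barcodes, at least 16.1-fold lower than in comparison barcodes, and 143 CPM in rich ones. Egr1 was at 178, 673 and 1308 CPM.

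Marker UMIs lay mostly in rich barcodes. At least 1 of Lgals3, Krt6a, Anpep and Cldn4 was found in 1 of 32 poor and 52 of 88 rich barcodes. After thinning, none was found in a poor barcode, and at least 1 was found in 39.8% of rich barcodes. Lgals3 had 5 UMIs in poor barcodes, all in 1 of them, and 232 CPM in rich ones. Lgals3 has no hydrophobic start, but Anpep has one, so Anpep UMIs entered the share that made the split. Cpt1a, Sema7a and Abcg1 had no UMI in poor barcodes and 197, 112 and 147 CPM in rich ones. S100a6 was at 41.1 CPM in poor, 379 CPM in rich and 35.2 CPM in comparison barcodes. Of 10 p53 targets measured in poor barcodes 1 was 2-fold higher and 2 were lower (median log2 ratio 0.62). In rich barcodes 5 of 11 were higher and none lower (0.95). Over all genes, 13.4% were higher and 18.6% lower in poor barcodes, and 12.2% and 7.14% in rich ones. Mdm2 was at 494, 476 and 204 CPM in poor, rich and comparison barcodes, and Cdkn1a at 411, 1323 and 458 CPM.

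Cell cycle genes were lower in rich barcodes. Of 13 S phase genes 9 were 2-fold lower there and none higher (median -1.30), and of 14 G2/M genes 10 were lower and none higher (-1.10). Mcm5, a subunit of the replicative helicase, was at 219 CPM in poor, 30.9 CPM in rich and 150 CPM in comparison barcodes. Top2a, which untangles DNA for mitosis, was at 1097, 244 and 509 CPM. Over all genes, 7.14% were called lower in rich barcodes. In poor barcodes 1 of 13 S phase and 2 of 14 G2/M genes were higher (medians 0.65 and 0.39). These counts are near or under the 13.4% of all genes called higher there. Over all low-mt barcodes 2 S phase and 3 G2/M genes were lower, against 4.44% of all genes. H19, an imprinted noncoding RNA of the cytoplasm, was at 2962 CPM in poor, 530 CPM in rich and 727 CPM in comparison barcodes, but its 216 UMIs in poor barcodes came from 3 of them, 174 from 1.

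At least 2 epiblast marker UMIs were found in 4 of 32 poor (12.5%) and 4 of 88 rich barcodes (4.55%), against 16.7% of the deeper comparison barcodes. The summed level of these markers was 343 CPM in poor, 92.8 CPM in rich and 136 CPM in comparison barcodes (log2 ratio of poor over comparison 1.33, 0.70 to 1.90), from 25 UMIs in poor barcodes. Of 5 measured in poor barcodes 4 were 2-fold higher, against 13.4% of all genes tested there. Only 2 markers were measured over all low-mt barcodes. The others passed the 20 CPM filter through the poor profile alone, which favours a call. Of the 4 poor barcodes with at least 2 epiblast marker UMIs, 3 had fewer than 5 UMIs over Col4a1, Col4a2, Lamb1, Lamc1 and Sparc. Whether the poor barcodes differ in cell type from the rich ones cannot be read from those genes, since all 5 have a hydrophobic start. The endoderm transcription factors Gata4 and Foxa2 have no such start. Gata4 was at 398 CPM in poor and 739 CPM in rich barcodes, and Foxa2 at 123 and 217 CPM. Levels of the other endoderm transcription factors in these barcodes are not reported here. Across 8827 genes the Spearman correlation of summed profiles was 0.68 for poor with rich, 0.78 for poor with comparison and 0.87 for rich with comparison barcodes, over profiles of unequal depth.

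**Figure D5:**
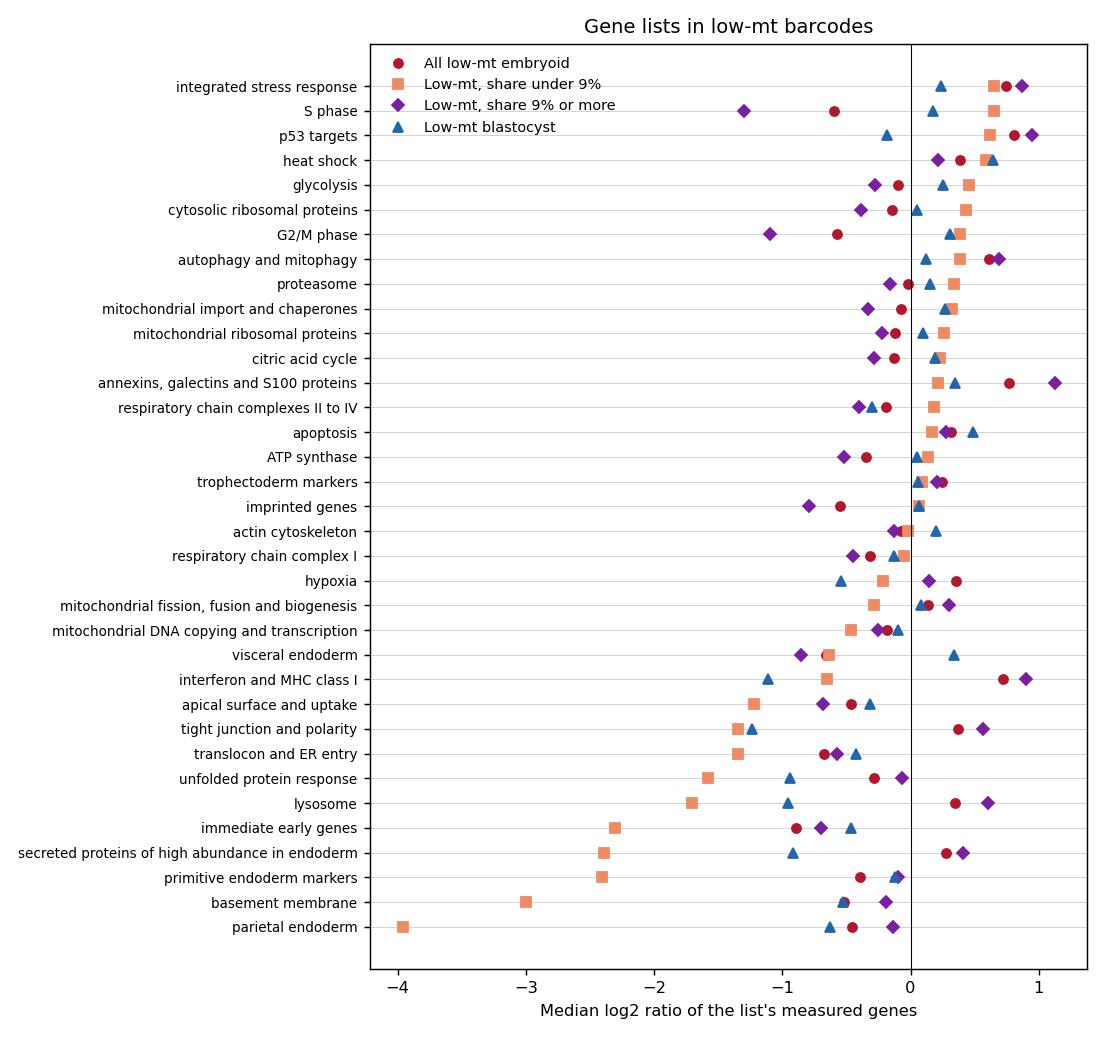
Median log2 ratio (horizontal axis) of each list with at least 5 measured genes in all 4 comparisons, for all low-mt embryoid barcodes (red circles), poor ones (orange squares), rich ones (purple diamonds) and low-mt blastocyst barcodes over blastocyst barcodes of 3 to 10% (blue triangles). Lists are ordered by the poor barcodes, where basement membrane stands at -2.999 and ribosomal proteins at 0.44.

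The blastocyst library, which the rule did not use, held low-mt barcodes too. They were 78 of 1145 kept barcodes (6.81%, 5.42 to 8.43), with a median mitochondrial share of 0.185% and 2262.5 UMIs. There were 31 kept blastocyst barcodes at 1 to 3% and 426 at 3 to 10%, whose median was 11540.5 UMIs. Most blastocyst low-mt barcodes lay on the poor side of the limit: 71 of 78 (91.0%) had a hydrophobic share below 9%, against 187 of the 426 (43.9%). No limit of the hydrophobic share entered their choice. Genes with a hydrophobic start had a median log2 ratio of -0.71 against 0.21 for other genes, and 255 of 682 (37.4%) were 2-fold lower, against 7.40% of the others. Over all 7064 genes tested there, 752 were 2-fold lower (10.6%) and 431 higher (6.1%). Against the 189 blastocyst barcodes of 3 to 10% with at least 5 Col4a1 UMIs, 865 of 7076 genes were lower (12.2%) and 536 higher (7.57%), and the class medians were -0.95 and 0.20.

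In the blastocyst library Malat1 was lower in low-mt barcodes, and the direction of the embryoid markers depended on the comparison. Malat1 was at 130.5 CPM against 419 CPM in blastocyst barcodes of 3 to 10%, and found in 11 of 78 against 371 of 426. Cldn4 was at 27.0 against 250.5 CPM, Lgals3 at 216 against 264 CPM, and Anpep at 4.5 against 2.44 CPM with 1 UMI. Cell types were not matched between these blastocyst barcodes: trophectoderm markers summed to 2169 against 2543 CPM and epiblast markers to 3064 against 4111 CPM, and their part in these ratios was not tested. Against the 189 blastocyst barcodes with Col4a1, chosen by the rule of the embryoid comparison, Cldn4 was at 27.0 against 2.73 CPM (log2 ratio 2.91), Lgals3 at 216 against 26.3 CPM (2.99) and Malat1 at 130.5 against 337 CPM (-1.36). That rule kept 44.4% of blastocyst and 87.2% of embryoid barcodes of 3 to 10%. Of low-mt barcodes, 16.7% in the blastocyst and 53.3% in the embryoid library would meet it. Cell types were therefore not matched here either: the trophectoderm markers summed to 2169 against 425 CPM, with 12 of 13 higher. Of 15 annexins, galectins and S100 proteins 9 were higher and 1 lower, against 7.57% and 12.2% of all genes. Ribosomal RNA made up 13.9% of mitochondrial UMIs (11.4 to 16.7) in the blastocyst low-mt barcodes. It made up 11.1% in blastocyst barcodes of 3 to 10% and 12.7% in those with Col4a1, so the blastocyst shares lay close together. The embryoid shares were 16.2% (11.1 to 22.4) in poor, 33.6% (29.6 to 37.8) in rich and 8.77% in comparison barcodes. The summed profile of poor barcodes correlated with that of blastocyst low-mt barcodes at 0.68 (Spearman), that of rich barcodes at 0.58 and that of comparison barcodes at 0.69, across the same 8827 genes. Within the 78 blastocyst low-mt barcodes the hydrophobic share and the Malat1 share had a rho of -0.026.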

How the data were processed

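UMI counts per gene symbol and barcode were used as deposited, as raw whole-number counts from the authors. For the steps before them, the submitters' processing notes list STAR 2.7.1a with mm10, featureCounts 1.6.4 of Subread, bcl2fastq 2.19.1.403 and UMI-tools 1.0.1. How barcodes were called, the annotation and the strand setting were not given in the sources used here. No doublet caller was run. Counts were summed over barcodes and scaled to CPM with pandas 2.3.3, Biopython 1.88, scipy 1.17.1 and numpy 2.4.6 in Python 3.11.15, and drawn with matplotlib 3.10.9. Ratio intervals are exact conditional and single levels exact Poisson, at 95%. The calculation was tested on simulated counts. Members, the 45 gene lists and the alternatives were chosen with earlier results of these data known. Of 805 list symbols 767 matched. Named were the 4 markers, mt- genes, the 15 highest and 15 lowest genes with a standard symbol, and in each list up to 6 with the largest ratio plus any at 500 CPM or more; some genes are not reported here. The hydrophobic class was planned on RefSeq proteins; coding sequences of APPRIS principal transcripts (GENCODE M21, GRCm38) were used instead. That choice, the 9% limit and the view at 100 CPM were made after seeing the data. Symbols without a coding sequence counted as having no hydrophobic start in barcode shares and were left out of the gene comparisons. In all, 12 planned or added alternatives were run on the main comparison.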

Additional observations from a re-analysis of the deposited data

Results flagged for a closer look

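Of the named genes, 7 were at least 2-fold apart in opposite directions in the 2 libraries, when low-mt barcodes were set over barcodes of 3 to 10% (in the embryoid library with Col4a1). The difference between libraries was not tested, and cell types were not matched. Cldn4 had a log2 ratio of 3.69 in the embryoid and -3.17 in the blastocyst library. Anxa3 had 2.14 and -4.78, the second from 0 UMIs in low-mt blastocyst barcodes, and S100a6 had 3.08 and -1.27. Malat1 had 1.25 and -1.68, and Neat1 1.29 and -3.13, the second from 1 UMI. Dnajb9, a chaperone of the endoplasmic reticulum, had 1.504 and -2.09, and the glycolytic enzyme Pfkp 1.30 and -1.49, each from 3 or fewer UMIs in low-mt blastocyst barcodes. Blastocyst barcodes with Col4a1, a choice added after seeing the data, follow the rule of the embryoid comparison but do not match cell types. Against them, Cldn4 (2.91) and S100a6 (2.02) turned to the embryoid direction, while Malat1 (-1.36), Neat1 (-2.71) and Dnajb9 (-2.20) kept the opposite one. Anxa3 and Pfkp were under 20 CPM in both profiles there.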

How the results depend on the processing

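No paired analysis was possible because each group is 1 library. For the main counts and summed levels, 55 of 73 alternative values stayed near the reported ones and 18 moved. A reversal was called only where a reported ratio was at least 2-fold, so none of these values could be called reversed. The ratio for genes with a hydrophobic start did change sign, for low-mt barcodes with Col4a1 (0.18). Genes called higher and lower numbered 379 and 179 with 10 CPM added, and 2023 and 2083 with no filter. Genes called lower numbered 222 at a mitochondrial limit of 2% and 640 over the 64 low-mt barcodes with 5 or more Col4a1 UMIs. At 2%, 7 lists had a median of 0.5 or more in size, against 12 as reported. Median-of-ratios scaling gave 449 higher and 432 lower, a higher share of 51.0% against 66.1%, and moved the median of all genes from 0.14 to -0.02. The log2 ratio of the summed level of genes with a hydrophobic start, -0.09 as reported, was -0.063 at 0.5%, -0.038 with at least 2000 UMIs and 1000 genes, -0.18 without mt- genes, -0.22 with median-of-ratios scaling, -0.17 with equal weights, -0.049 against all barcodes of 3 to 10%, 0.18 for low-mt barcodes with Col4a1, -0.16 at matched depth and -0.051 without barcodes of 2 or more epiblast UMIs. These last 2, the split limits and the longest coding sequence were chosen after seeing the data. Split limits of 8% and 10.5% gave 27 and 44 poor barcodes, and the longest coding sequence 37. Blastocyst low-mt barcodes numbered 49 with at least 2000 UMIs and 1000 genes. At 2%, Vim (2.60), Plagl1 (1.91), Ifitm3 (1.65), Lgals1 (1.16), Nid1 (0.26) and the fibroblast markers together (1.03) reversed, and Vim was at 0.015 at matched depth; the cause was not tested. Of 97 named genes called, 76 to 97 stayed 2-fold apart. Log2 ratios ran from 3.74 to 5.63 for Lgals3, 3.61 to 5.78 for Anpep, 3.38 to 3.90 for Cldn4, 2.37 to 5.05 for Krt6a and 0.93 to 1.37 for Malat1. Depth limits single genes: the floor of 3 UMIs is 9.05 CPM in low-mt and 41.1 CPM in poor barcodes.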

Other observations

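Surface and secreted proteins of endoderm divided in low-mt barcodes. Over all genes tested, 8.68% were called higher and 4.44% lower. Of 11 apical surface and uptake genes, Anpep and Espn, an actin bundler of microvilli, were 2-fold higher, and Cubn, Amn, Dpp4 and Vil1 were lower (median log2 ratio -0.47). Dpp4, a peptidase of the apical membrane, was at 93.5 CPM in low-mt against 348 CPM in comparison barcodes. Of 8 visceral endoderm genes Ttr, which carries thyroid hormone, and Apob were lower (median -0.66), with Ttr at 103 against 314 CPM. Of 14 tight junction and polarity genes Cldn4 alone passed 2-fold (median 0.37). The keratins of simple epithelia did not pass it: Krt8 was at 127 against 128 CPM and Krt18 at 516 against 494 CPM.

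Tmsb4x, which binds actin monomers, was at 2371 against 1006 CPM, while Myl9, a myosin light chain, was at 9.05 against 53.1 CPM. Among 9 interferon and MHC class I genes Ifitm3 was lower, with 1 UMI, at 3.02 against 22.1 CPM. Among 11 imprinted genes Snrpn was higher, at 39.2 against 12.2 CPM, and Sgce, Cdkn1c and Plagl1 were lower, with log2 ratios from -1.54 to -1.12. Of 8 heat shock genes Hspb1 was at 115 against 53.9 CPM and Hspa1b at 24.1 against 4.90 CPM, with 5 of its 8 UMIs in 1 low-mt barcode. Of 9 hypoxia genes Ndrg1 passed 2-fold, at 419 against 202 CPM, and of 13 glycolysis genes Pfkp. With 8.68% of all genes called higher and 4.44% lower, 1 member called in a list of this size says little about the list.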
